A study of Mus musculus with 6 samples.

Results

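The Ifitm genes encode small membrane proteins, and 4 of them, Ifitm1, Ifitm2, Ifitm3 and Ifitm6, were followed in long-term haematopoietic stem cells (LT-HSC) from the bone marrow of mice. Members were taken as every probe set that the platform annotation assigns to 1 of these genes alone, and there were 4 of them, 1 for each of 4 genes out of 18193, among 34945 single-gene probe sets and 45037 probe sets in all. No probe set named one of these genes together with another gene. The study compared 3 arrays of Irf8-/- mice, called knockout here, with 3 arrays of Irf8+/+ mice, called wildtype, all placed at 3 weeks by the labels and recorded as untreated. Irf8 encodes an interferon regulatory factor that monocytes and dendritic cells need for their development. The cells were sorted as negative for lineage markers and CD48 and positive for c-kit, Sca-1 and CD150, so both groups share that gate. The labels call the arrays biological replicates without saying whether each came from 1 animal or from several. P-values speak to no spread beyond that between such arrays. In the linear model used here the spread of a probe set is drawn towards that of other probe sets at its level.

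IFITM proteins stop many enveloped viruses at the step where the viral and the cellular membrane fuse. IFITM3 acts mainly in late endosomes and lysosomes, and IFITM1 is found more at the cell surface. Most cells make them after interferon has bound its receptor, whereas many stem cells transcribe them without that stimulus, and Ifitm1 and Ifitm3 transcripts are well known in haematopoietic stem cells. Ifitm6 is a less studied mouse member described in macrophages. In the RefSeq gene order of mouse chromosome 7 the genes run Ifitm5, Ifitm2, Ifitm1, Ifitm3, Ifitm6 with no other protein-coding gene between them.

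Interferon signals reach genes of this kind through the interferon-stimulated response element, whose core is searched here as GAAANNGAAA, and interferon regulatory factors bind it. IRF8 also binds with the ETS factor PU.1 at a composite element, searched as GGAANNGAAA. Each gene had 1 window of 300 bases in the RefSeq promoter table (GRCm38.p6), reaching 250 bases before and 50 bases after the transcript start, and both strands were searched. The response element core was found in the windows of Ifitm2 and Ifitm3 and not in those of Ifitm1 and Ifitm6. The composite element was found in the window of Ifitm6 alone among the members. A further motif, TTCNNNGAA, named GAS, was searched as well. It was found in Ifitm3, from 14 to 22, and in Ifitm6, from -10 to -2, and not in Ifitm1 and Ifitm2. It is not marked in the stretches below. Over all 32851 windows of this length 3.44% held the response element core, 2.72% the composite element and 8.30% the further motif. The letters of the response element core and the composite element differ at the second base. These 2 therefore cannot match the same bases on 1 strand. The stretches below are shown to place the matches in genes whose values are given further on. Each is written 5′ to 3′ on the gene's own strand, with matches to the response element core in capitals for Ifitm2 and Ifitm3 and matches to the composite element in capitals for Ifitm6. The Ifitm1 stretch has no match to either.
Ifitm2, bases -250 to -1, chr7:140955962-140956211, minus strand: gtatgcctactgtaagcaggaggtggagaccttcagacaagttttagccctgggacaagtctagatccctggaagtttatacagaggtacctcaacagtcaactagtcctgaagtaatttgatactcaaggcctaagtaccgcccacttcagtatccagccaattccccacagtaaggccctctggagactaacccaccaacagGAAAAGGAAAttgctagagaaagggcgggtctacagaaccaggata
Ifitm3, bases 1 to 30 of the transcript, chr7:141010715-141010744, minus strand: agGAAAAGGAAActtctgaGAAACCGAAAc
Ifitm1, bases -250 to -1, chr7:140967826-140968075, plus strand: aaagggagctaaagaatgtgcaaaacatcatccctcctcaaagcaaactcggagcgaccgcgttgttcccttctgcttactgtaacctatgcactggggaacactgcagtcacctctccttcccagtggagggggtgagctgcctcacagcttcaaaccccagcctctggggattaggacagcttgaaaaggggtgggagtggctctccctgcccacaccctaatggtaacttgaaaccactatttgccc
Ifitm6, bases -250 to -1, chr7:141016893-141017142, minus strand: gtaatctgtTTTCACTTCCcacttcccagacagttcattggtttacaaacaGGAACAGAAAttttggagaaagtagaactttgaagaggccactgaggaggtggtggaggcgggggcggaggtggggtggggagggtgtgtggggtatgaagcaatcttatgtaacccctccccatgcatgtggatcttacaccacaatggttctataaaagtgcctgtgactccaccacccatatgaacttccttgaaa
In Ifitm2 the match lay from -46 to -37. Ifitm3 held the same letters from position 3 to 12 after its start and a second match from 20 to 29. The 2 composite matches of Ifitm6 lay from -199 to -190 and, on the opposite strand, from -241 to -232. A match of letters is a description of the sequence and shows no binding.

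The deposited values are log2 expression per probe set, with array medians between 4.85 and 4.96. With 6 arrays the precision of each difference is limited. The 2 probe sets of Irf8 itself were not lower in the arrays labelled knockout. They read 4.91, 6.39 and 6.50 in knockout against 4.98, 6.43 and 5.16 in wildtype for the brighter probe set and 4.61, 5.48 and 3.83 in knockout against 4.14, 4.02 and 5.08 in wildtype for the other. The sources used here do not say which part of Irf8 was deleted or where the probes bind, so this reading checks nothing about the labels. Knockout replicate 3 stood apart from the other arrays, with the lowest mean correlation with the others across probe sets, 0.835 against 0.859 to 0.880 for the rest. All 14 measured marker genes of long-term stem cells lay above the median probe set level. Their mean level was 9.27, 8.86 and 7.33 in knockout replicates 1, 2 and 3, against 8.35 to 9.10 in wildtype. Each Ifitm difference is therefore given with and without that array.

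Ifitm1, Ifitm2 and Ifitm3 gave bright signals on all 6 arrays and differed little between the groups, while Ifitm6 was dim on 5 arrays and bright on 1. Averaged over the arrays, the probe sets of Ifitm3, Ifitm1 and Ifitm2 read 12.75, 12.69 and 11.40, at the 99.7th, 99.6th and 98.6th percentile of all probe sets. Ifitm6 averaged 6.06, at the 64.5th percentile. A level differs between probe sets also through the probes themselves, so these numbers describe signal and do not rank the transcripts. The highest value on each array lay between 13.94 and 14.09. Whether signals this bright show transcript differences in full was not tested. In limma, fitted over all 45037 probe sets with Benjamini-Hochberg adjustment, 0 of the 4 members passed an adjusted p of 0.05, as did 0% of all probe sets. At an unadjusted p under 0.05 there were 0 members and 2115 probe sets, which is 4.7% of all. Ifitm3 was under 0.05 unadjusted in 3 of 15 alternatives.

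**Figure D1:**
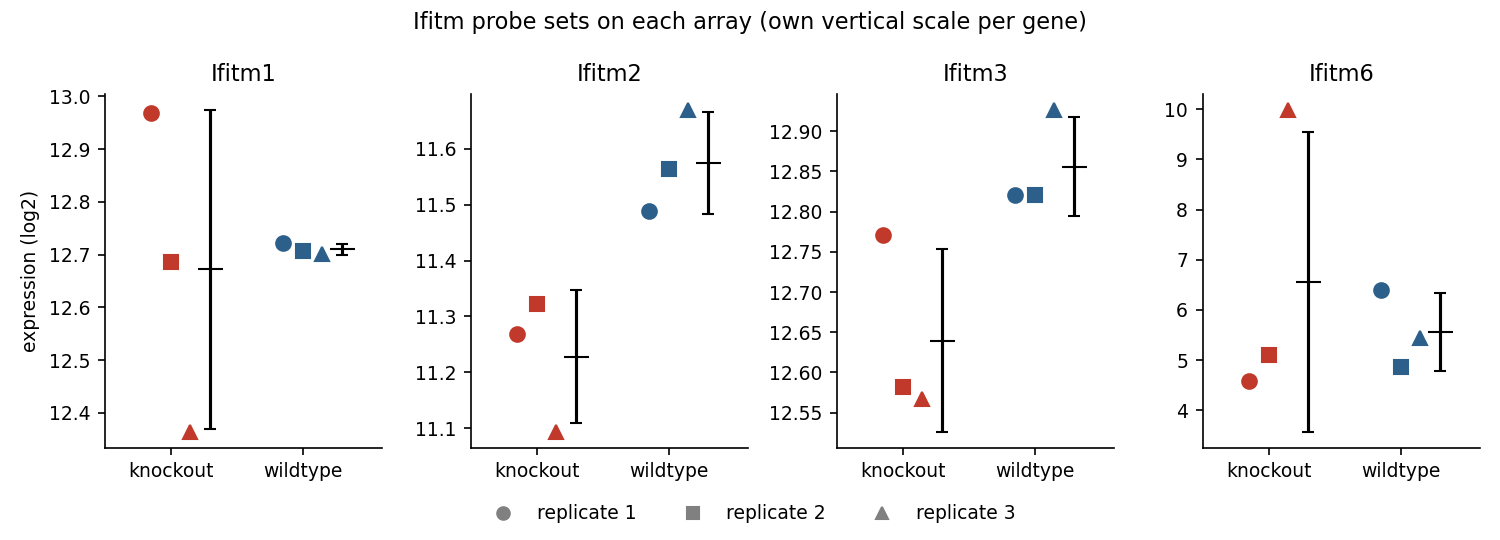
Log2 expression of the Ifitm1, Ifitm2, Ifitm3 and Ifitm6 probe sets on each array, with 3 knockout arrays (red, left) and 3 wildtype arrays (blue, right); symbols mark the replicate number, bars give the mean and SD, and each gene has its own vertical scale. The groups are separate for Ifitm2 and Ifitm3, overlap for Ifitm1, and for Ifitm6 knockout replicate 3 lies at 9.99 above all other arrays.

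Ifitm2, whose human counterpart is found mainly in endosomal membranes, read 11.27, 11.32 and 11.09 in knockout replicates 1 to 3, against 11.49, 11.56 and 11.67 in wildtype. All 3 knockout arrays lay below all 3 wildtype arrays, with a gap of 0.17 between the nearest values. The means were 11.23 ± 0.12 in knockout and 11.57 ± 0.09 in wildtype (SD, n = 3 each). The difference was -0.35 on the log2 scale (SE 0.16), a fold of 0.786 with a 95% interval of 0.605 to 1.02, and it did not pass (limma, unadjusted p = 0.066, adjusted p = 0.906). Without knockout replicate 3 it was -0.28. The SE takes in the spread of other probe sets at like levels, not these SDs alone.

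Ifitm3, the member most studied for its block of influenza virus entry, read 12.77, 12.58 and 12.57 in knockout replicates 1 to 3, against 12.82, 12.82 and 12.93 in wildtype. The groups again did not overlap, and the nearest values were 0.050 apart. The means were 12.64 ± 0.11 in knockout and 12.86 ± 0.06 in wildtype (SD, n = 3 each). The difference was -0.22 (SE 0.09), a fold of 0.861 with a 95% interval of 0.738 to 1.004 (limma, unadjusted p = 0.0546, adjusted p = 0.906). Without knockout replicate 3 it was -0.18.

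Thus 2 of the 4 members had all knockout values below all wildtype values, and 0 had them above. The same held in that direction for 4.23% of all probe sets and for 9.28% of the probe sets in the top 5% of levels, and in the opposite direction for 6.66% and 4.88% of these. The median difference of those brightest probe sets was -0.09, against 0.06 over all probe sets. Among the members the response element core was held by Ifitm2 and Ifitm3, and the composite element by Ifitm6. The further motif was held by Ifitm3 and Ifitm6. Whether a motif goes with a difference was not tested, and 4 genes, of which 0 passed, cannot show it.

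Ifitm1, the member found more at the cell surface, read 12.97, 12.68 and 12.36 in knockout replicates 1 to 3, against 12.72, 12.71 and 12.70 in wildtype. The wildtype arrays lay inside the range of the knockout arrays, of which replicate 1 was the highest and replicate 3 the lowest of all 6. The means were 12.67 ± 0.30 in knockout and 12.71 ± 0.01 in wildtype (SD, n = 3 each). The difference was -0.04 (SE 0.16), a fold of 0.974 with a 95% interval of 0.751 to 1.26 (limma, adjusted p = 0.976). The sign was not settled, at 0.12 without knockout replicate 3, at 0.014 with array weights and at 0.00045 after quantile normalization.

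Ifitm6 read 4.58, 5.11 and 9.99 in knockout replicates 1 to 3, against 6.39, 4.86 and 5.44 in wildtype. Knockout replicate 3 was 4.43 above the wildtype mean, while knockout replicates 1 and 2 were at -0.98 and -0.46 from it. The means were 6.56 ± 2.98 in knockout and 5.57 ± 0.77 in wildtype (SD, n = 3 each). The difference was 0.99 (SE 1.45), a fold of 1.99 with a 95% interval of 0.177 to 22.4 (limma, adjusted p = 0.926). Without knockout replicate 3 the difference was -0.72, so 1 array decides its direction.

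**Figure D2:**
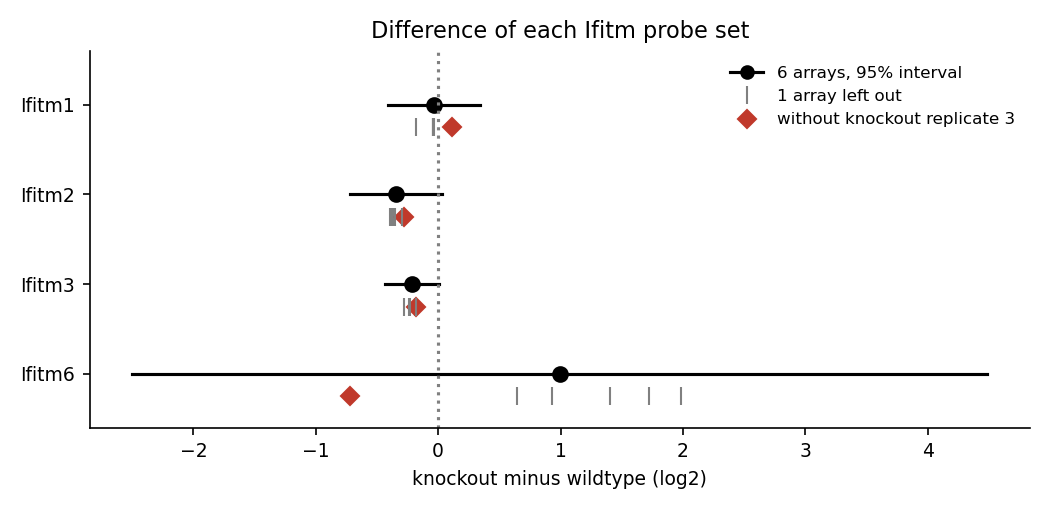
Knockout minus wildtype difference (log2) of each Ifitm probe set over 6 arrays (black, with the 95% interval from limma) and with 1 array left out (grey ticks; red diamonds leave out knockout replicate 3). Ifitm2 and Ifitm3 stay below 0 in every case, Ifitm1 lies around 0, and Ifitm6 is at 0.99 with all arrays and at -0.72 without knockout replicate 3.

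The spread between replicates differed widely within the family. The SD within groups was 0.09 for Ifitm3, 0.11 for Ifitm2, 0.21 for Ifitm1 and 2.18 for Ifitm6, against a median of 0.50 over all probe sets. The brightest probe sets vary least on these arrays: at levels from 12 to 13 the median SD was 0.16, with a 10th to 90th percentile range of 0.075 to 0.364 that takes in Ifitm1 and Ifitm3. At levels from 11 to 12 the median was 0.34 and the lower end of that range 0.146, above the value of Ifitm2. At levels from 6 to 7 the upper end was 1.93, below the value of Ifitm6.

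**Figure D3:**
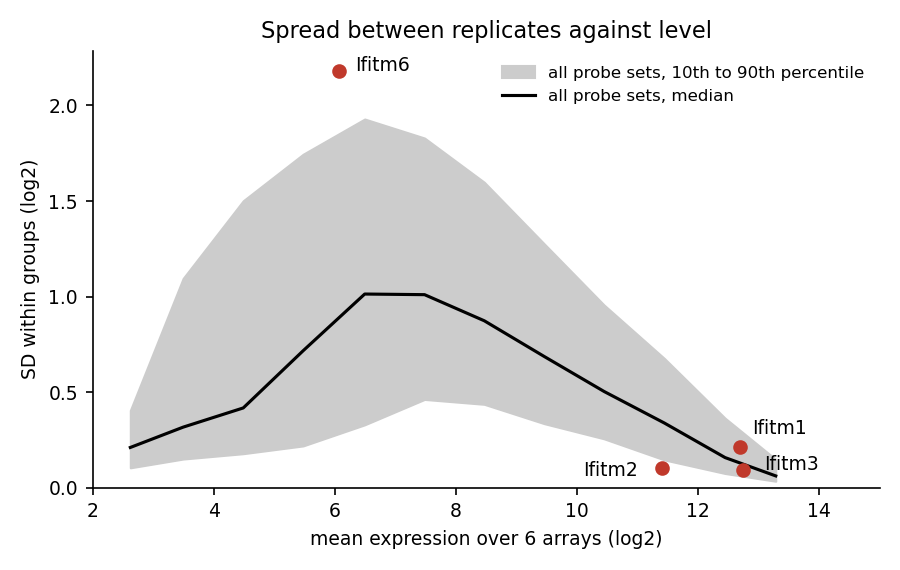
SD within groups (log2) against mean expression over 6 arrays (log2). The line and grey band give the median and the 10th to 90th percentile of all probe sets by level, and the points are the 4 Ifitm probe sets: Ifitm1 and Ifitm3 lie inside the band, Ifitm2 below it and Ifitm6, at 2.18, above it.

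Whether the members moved unlike each other was tested on the 6 pairs, by the difference of their 2 values within each array. The largest differences of the group differences involved Ifitm6, at -1.34 for Ifitm2 against Ifitm6, -1.21 for Ifitm3 against Ifitm6 and -1.03 for Ifitm1 against Ifitm6 (two-sided exact permutation p = 0.6, 0.8 and 0.9). Ifitm1 against Ifitm2 gave 0.31 with p = 0.1, Ifitm1 against Ifitm3 gave 0.18 with p = 0.3, and Ifitm2 against Ifitm3 gave -0.13 with p = 0.2 by the same exact test. The adjusted exact p was 0.6 or 0.9 for all 6 pairs. With 3 arrays in each group 0.1 is the smallest p possible, so no pair could have passed.

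Profiles over the 6 arrays were compared by the root mean square difference after each was centred on its own mean, among single-gene probe sets above the median level. Ifitm2 and Ifitm3 were the closest pair of members, 0.10 apart, and Ifitm6 lay between 1.92 and 2.003 from each of the others. Most alike to Ifitm2 were Snrpg (0.040), a core protein of spliceosomal particles, the ribosomal protein gene Rpl7a (0.060), the chromatin protein gene Hmgn1, the RNA-binding protein gene Hnrnpa1 and the phosphatase gene Ptp4a2 (0.075), where Ifitm2 itself varied by 0.19 about its mean. Most alike to Ifitm3 were Cox5b (0.044), a subunit of cytochrome c oxidase, Naca, Pitpnc1, the ribosomal protein gene Rps7 and Myl3 (0.066). Srcin1 (0.034), Morf4l2, Anp32b, the immediate-early gene Egr1 and Fermt3 (0.073) were closest to Ifitm1. Closest to Ifitm6 were Klc3 (0.44), a kinesin light chain, Plscr1 (0.45), an interferon-induced phospholipid scramblase, Cenpa, Xxylt1 and Anapc1 (0.48), where Ifitm6 varied by 1.85. The probe set of Plscr1 most alike to Ifitm6 read 5.26, 5.76 and 10.13 in knockout replicates 1 to 3, against 7.37, 5.75 and 5.14 in wildtype. These distances rest on 6 arrays and were searched over all such probe sets. A gene stood by its most alike probe set, and any others of the same gene are not given here. Among them the probe sets of Hmgn1, Hnrnpa1, Cox5b, Rps7 and Morf4l2 are of a type that can hybridise with related transcripts. Those of Snrpg, Naca and Fermt3 are of a type that can match several transcripts.

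Over all 6 arrays, other antiviral genes of the interferon response lay below 0 more often than above, and this did not hold without 1 wildtype array. Of 50 measured antiviral interferon-stimulated genes 34 had a difference below 0 and 16 above, with a median of -0.44 against 0.07 over all genes. Of all 18193 genes 7900 lay below 0. The groups did not overlap for 8 of them, each lower in knockout, or 16%, where 4.25% of all genes were lower and 6.67% higher without overlap. Rsad2, the antiviral enzyme viperin, read 5.57, 5.34 and 6.52 in knockout against 8.04, 8.75 and 9.0 in wildtype. Nmi, an interferon-induced gene, read 6.06, 7.0 and 7.21 in knockout against 8.79, 8.47 and 9.14 in wildtype. For the GTPase gene Irgm1 the difference was -1.60 (SE 0.55). These differences are larger than those of Ifitm2 and Ifitm3, but they lie at lower levels, where probe sets vary more between replicates. The median SD was 0.72 at levels from 5 to 6 and 1.01 from 7 to 8, against 0.34 from 11 to 12 and 0.16 from 12 to 13. Of the 50 genes 0 passed over all probe sets (limma, adjusted p = 0.906 for Rsad2). Wildtype replicate 3 was the list's highest array, at 0.41 from the wildtype mean. Without it 25 of the 50 genes lay below 0, where 7721 of all 18193 genes did, and the median was 0.00245. In that case 9 genes were lower and 4 higher without overlap, or 18% and 8%, against 8.24% and 12.8% of all genes. Without knockout replicate 3 there were 30 genes below 0, where 9050 of all 18193 genes were. Then 9 were lower without overlap, or 18%, against 10.03% of all genes. Groups that are separate stay so when an array is left out, so these counts can only stay or grow. Counts without single arrays, here and for the other lists, were added after the data were seen.

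Among 19 genes listed as cell-intrinsic restriction factors, whose products hinder viruses, 10 lay below 0 and 9 above, with a median of -0.28. Of all 18193 genes 7900 lay below 0. In 4 of them, or 21.1%, all knockout arrays lay below all wildtype arrays, against 4.25% of all genes, and in 0 above, against 6.67%. Of the 19 genes 9 are also among the interferon-stimulated genes above, and 2 of those 9, Rsad2 and Ly6e, are among the 4. Besides Rsad2 these were Samhd1, which depletes the nucleotides used for reverse transcription, Ly6e, a lipid-anchored surface protein that hinders coronavirus entry, and Ncoa7, a factor of endosome acidification in human cells, the last named after its values were seen. Samhd1 read 8.91, 8.47 and 8.01 in knockout against 9.54, 9.95 and 9.63 in wildtype. Ly6e read 12.13, 11.10 and 9.84 in knockout against 12.21, 12.59 and 12.70 in wildtype, lowest in knockout replicate 3. Its probe set is of a type that can match several transcripts. Without knockout replicate 3 there were 8 genes below 0, where 9050 of all 18193 genes were. Then 6 were lower without overlap, or 31.6%, against 10.03% of all genes. Without wildtype replicate 3 there were 8 genes below 0, where 7721 of all 18193 genes were. Then 5 were lower without overlap, or 26.3%, against 8.24% of all genes. Of these 19 genes 0 passed, and the median was 0.04 without knockout replicate 3, 0.02 without wildtype replicate 3 and -0.52 without knockout replicate 2.

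Genes that carry the interferon signal lay on both sides of 0. Of 23 receptor and signalling genes 13 lay above 0 and 10 below, with a median of 0.06. Socs1, an inhibitor of JAK kinases, read 5.72, 5.36 and 5.30 in knockout against 4.27, 4.34 and 4.76 in wildtype, the 1 gene of this list whose groups did not overlap, or 4.35%, against 6.67% of all genes higher and 4.25% lower. Without wildtype replicate 3 there were 6 genes higher and 2 lower without overlap, or 26.1% and 8.70%, against 12.8% and 8.24% of all genes, and the median was 0.23. Without wildtype replicate 1 the median was -0.02. The kinase gene Tyk2 differed by -1.09 (SE 0.57) and the type I receptor chain gene Ifnar2 by -1.14 (SE 0.63), and 0 of the 23 genes passed.

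Genes whose products bind or modify IFITM proteins had a median of 0.52, with 12 of 15 above 0 and 3 below, where 7900 of all 18193 genes lay below 0. The groups did not overlap for 0 of the 15, against 6.67% of all genes higher and 4.25% lower. Without knockout replicate 3 there were 5 below 0 in place of 3, where 9050 of all 18193 genes lay below 0. In that case 1 was higher and 1 lower without overlap, or 6.67% each, against 10.5% and 10.03% of all genes. Nedd4, a ubiquitin ligase of IFITM3, differed by 0.66 (SE 0.42), Atp6v0b, a proton pump subunit that human IFITM3 binds, by 0.67 (SE 0.44), and Setd7, a methyltransferase that acts on human IFITM3, by -1.86 (SE 1.36). The probe set of Atp6v0b is of a type that can hybridise with related transcripts. Without wildtype replicate 2 the median was 0.15, and 0 of the 15 genes passed.

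Relatives of the family outside the 4 members gave dim signals. Of 8 measured genes of the wider CD225 family, which share the IFITM membrane domain, 4 lay above 0 and 4 below, with a median of -0.02, and 3 lay above the median probe set level. Tmem91 read 3.85, 3.92 and 3.72 in knockout against 6.35, 5.08 and 4.64 in wildtype. Ifitm7, which lies on chromosome 16 apart from the cluster, read 3.28 to 3.39 in knockout and 3.47, 6.36 and 3.37 in wildtype, so 1 wildtype array carries its difference of -1.06. Prrt1 differed by 0.27 (SE 0.31). Ifitm5, a bone-forming cell gene at the end of the cluster, and Ifitm10, both named here after their values were seen, differed by -0.25 and -0.08.

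The 27 measured neighbours of the cluster on chromosome 7 had a median of -0.03, with 1 gene higher and 1 lower without overlap, or 3.70% each, below the 6.67% and 4.25% of all genes. The lower one was Sigirr, an inhibitor of interleukin-1 and Toll-like receptor signals, at 8.69, 8.45 and 7.98 in knockout against 9.20, 8.85 and 9.19 in wildtype; the higher one was Cox8b, named after its values were seen, at a difference of 0.31. Eps8l2 differed by -1.18 (SE 0.64) and Ric8a by 0.29 (SE 0.18). The probe set of Eps8l2 is of a type that can match several transcripts, and that of Ric8a can hybridise with related ones. The sign of the median turned under other settings, among them 0.15 without wildtype replicate 1, and 0 of the 8 relatives and of the 27 neighbours passed.

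**Figure D4:**
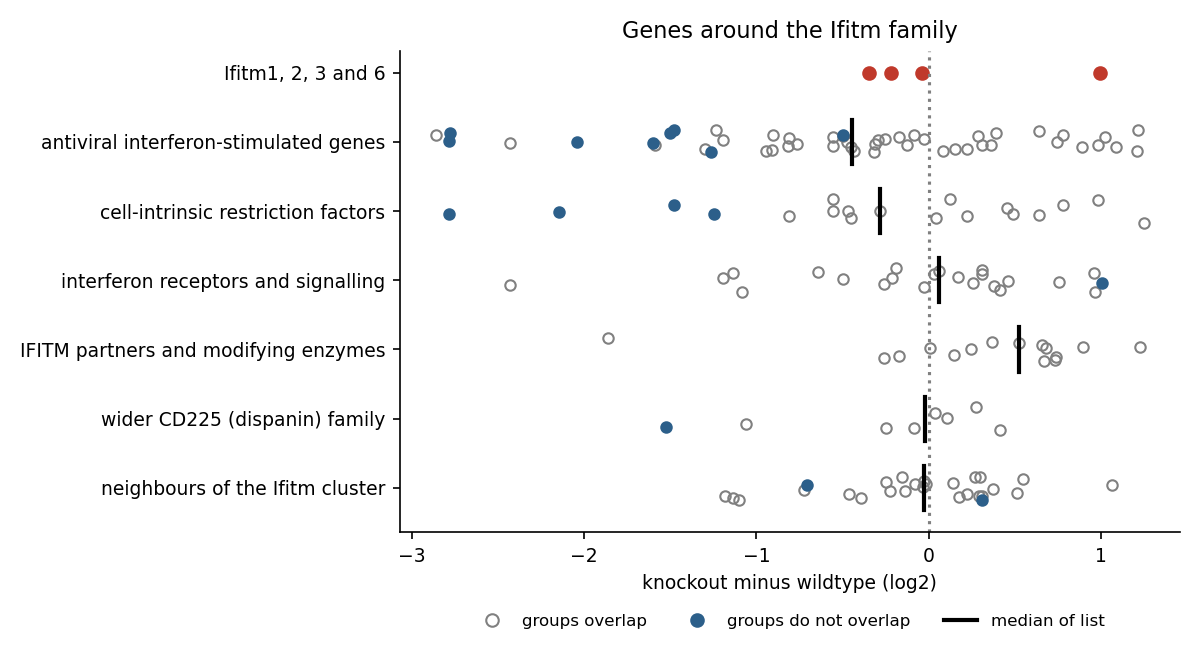
Knockout minus wildtype difference (log2) of the 4 Ifitm genes (red) and of each measured gene in 6 lists around them, with filled blue points where the groups did not overlap and black bars at list medians. The lowest blue points, below -2, are Rsad2, Nmi and, named after its value was seen, Lgals3bp among the interferon-stimulated genes and Rsad2 and Ncoa7 among the restriction factors, whereas Ifitm1, Ifitm2 and Ifitm3 lie within 0.35 of 0.

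Neutrophil marker genes were higher in knockout by a median of 2.12, with 17 of 19 above 0, and most were highest in the array where Ifitm6 was bright. The groups did not overlap for 6 of the 19, or 31.6%, each higher in knockout, against 6.67% of all genes, and 0 passed. Without knockout replicate 3 the median was 1.29, with 6 higher without overlap, against 10.5% of all genes. Of the 19 measured markers 15 lay above the median probe set level and 16 were highest in knockout replicate 3, where 31.8% of all genes had their highest value. Their median distance from the wildtype mean was 0.70, 0.20 and 3.63 in knockout replicates 1, 2 and 3, against -0.36 to 0.17 in wildtype arrays, and Ifitm6 stood at -0.98, -0.46 and 4.43 in the same knockout arrays. The mean level of the markers was 7.46 to 9.91 in knockout and 5.88 to 6.84 in wildtype. S100a9, a subunit of the neutrophil protein calprotectin, read 13.14, 12.50 and 13.87 in knockout against 11.38, 10.85 and 11.26 in wildtype. Ifitm6 thus followed these genes in knockout replicate 3 and not in knockout replicate 1, where the markers were above the wildtype mean and Ifitm6 was at its lowest. The part of neutrophil transcripts in the Ifitm6 value was not tested, and in bulk samples more cells of a type and more RNA per cell cannot be told apart.

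Markers of monocytes and macrophages, where Ifitm6 has been described, did not show that pattern. Their mean level was 6.11, 6.39 and 6.18 in knockout replicates 1 to 3, against 6.14, 6.75 and 6.11 in wildtype, with 8 of 14 above the median probe set level. A further list held 5 genes taken as surface markers outside the gate or variable within it. Of these Cd48, on which cells were excluded, is the one that the stated gate names. It read 7.60, 9.42 and 3.55 in knockout replicates 1 to 3, against 4.54, 4.31 and 3.13 in wildtype. Among the knockout arrays Cd48 was thus lowest where Ifitm6 was bright. Flt3, a receptor of multipotent progenitors with the smallest unadjusted p of this list, read 7.99, 8.56 and 10.55 in knockout replicates 1 to 3, against 6.93, 6.19 and 6.63 in wildtype. Its groups did not overlap and it was highest where Ifitm6 was bright (limma, unadjusted p = 0.0163, adjusted p = 0.906). Ptprcap went the other way, at 9.51, 9.94 and 9.85 in knockout against 10.15, 10.19 and 10.31 in wildtype. Of the 5 genes of this list 3 lay above 0 and 2 below. Without overlap 1 was higher and 1 lower, or 20% each, against 6.67% and 4.25% of all genes. Their median was 1.04, and 0.57 to 1.74 with 1 array left out, at the low end without wildtype replicate 2 and at the high end without wildtype replicate 3. Erythroid genes had a median of -0.51, and -0.94 without wildtype replicate 2. B cell, T and NK cell, megakaryocyte, mast cell, and endothelial and stromal markers had medians of 0.02, 0.08, 0.05, -0.23 and 0.61. Endothelial and stromal markers were at 0.04 without knockout replicate 3, and mast cell markers at -0.0051 without wildtype replicate 3. The B cell, T and NK cell and megakaryocyte medians changed sign without knockout replicate 3, to -0.13, -0.0079 and -0.22. Long-term stem cell markers had a median of -0.08, and ran from -0.63 without knockout replicate 1 to 0.27 without knockout replicate 3.

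**Figure D5:**
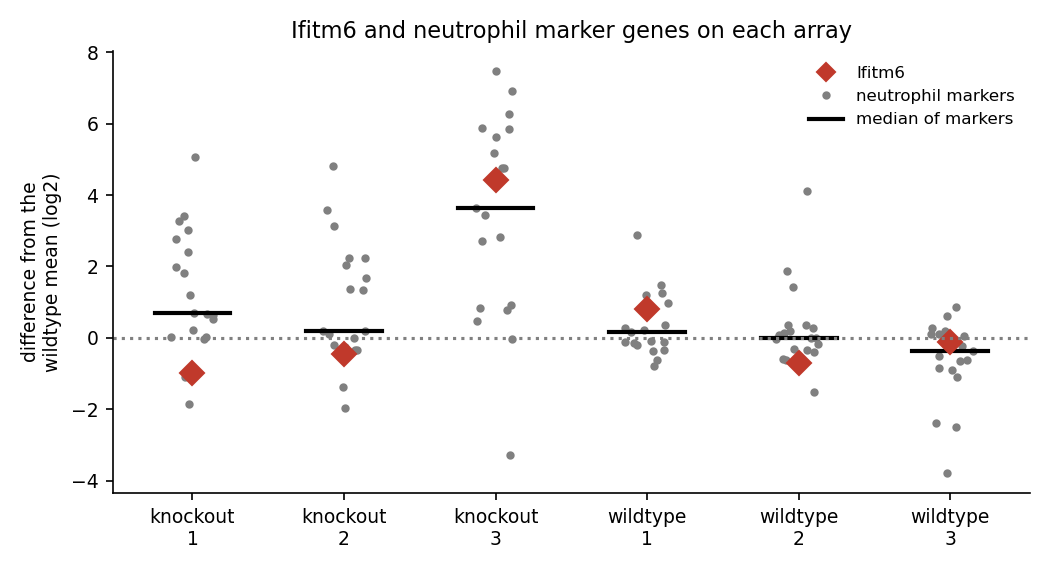
Difference from the wildtype mean (log2) of Ifitm6 (red diamonds) and of 19 neutrophil marker genes (grey points, black bar at their median) on each array, knockout arrays left and wildtype arrays right. Both are far above 0 in knockout replicate 3, at 4.43 for Ifitm6 and 3.63 for the marker median, and in knockout replicate 1 the marker median is 0.70 while Ifitm6 is at -0.98.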

How the data were processed

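Small amounts of RNA from 3 knockout and 3 wildtype samples were amplified and read on Affymetrix mouse arrays, per the labels' protocols. The authors deposited log2 values, 1 per probe set and array; per the submitters' processing notes they used RMA, Partek and Affymetrix Expression Console, with no version or setting stated. The log2 scale was read from the values. RMA compresses differences of dim probe sets.

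Of 45037 probe sets 34945 named 1 gene, 932 several and 9160 none in the platform annotation. Knockout was compared with wildtype over all probe sets by a linear model per probe set with variances moderated along a mean-variance trend (limma 3.58.1 in R 4.3.3), with Benjamini-Hochberg adjustment and a threshold of 0.05. No filter on level was applied. In 6 pathway and 10 marker lists a gene stood by its probe set with the highest mean, and lists were described by counts and medians without a set test. Members and lists were chosen with earlier results of these data known.

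Named were all members, Irf8, the 3 genes of each list with the smallest unadjusted p where none passed (of the marker lists only some are given), and the 5 genes with the most alike profile per member; exceptions are marked. On simulated arrays of 45037 probe sets the fit recovered a mean of 1.01 for a shift of log2 1. It called 1.2% of such probe sets, 11.2% at log2 2 and 44.8% at log2 4, so most true shifts of such sizes would be missed. These shares are averages over probe sets drawn at random, where the median SD was 0.50. The SD was 0.21, 0.11, 0.09 and 2.18 for Ifitm1, Ifitm2, Ifitm3 and Ifitm6, so the shares do not describe single members. Same-numbered arrays did not deviate together (correlations of -0.014, 0.0042 and 0.0028), and the numbers do not pair the samples. Alternatives were the moderation, array weights, quantile normalization, centring on medians and a filter on level. Further ones were the choice of probe sets, a replicate block, a term for the Xist pattern and leaving out each array. Xist was high in 1 array of each group, knockout replicate 1 and wildtype replicate 3. Counts of genes without knockout replicate 3 and without wildtype replicate 3 were added after the data were seen. Python 3.11.15, scipy 1.17.1 and matplotlib 3.10.9 made the exact tests and figures.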

Additional observations from a re-analysis of the deposited data

How the results depend on the processing

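Each Ifitm difference was recomputed under 15 alternatives, and in none did a member pass an adjusted p of 0.05. Ifitm2 and Ifitm3 were below 0 in all 15, from -0.39 to -0.28 and from -0.28 to -0.18, ranges that leaving out single arrays also gave. The unadjusted p of Ifitm3 in limma was 0.0197 without knockout replicate 1, 0.030 with the Xist term, 0.048 with the filter on level and 0.289 without the mean-variance trend. Ifitm1 ran from -0.19 (without knockout replicate 1) to 0.12 (without knockout replicate 3) with 1 array left out and turned to 0.014 with array weights and 0.00045 after quantile normalization. Ifitm6 ran from -0.72 (without knockout replicate 3) to 1.98 (without knockout replicate 1), was 1.72 without knockout replicate 2, and was 0.39 with array weights. With the replicate block the differences of Ifitm1, Ifitm2, Ifitm3 and Ifitm6 stayed at -0.04, -0.35, -0.22 and 0.99 with adjusted p of 0.977, 0.903, 0.903 and 0.927 in limma, and no call changed. The number of probe sets past the threshold was 0 in limma under 14 alternatives and 1 when the probe sets of a gene were averaged, Zfp229 (adjusted p = 0.047), named after its value was seen. The share at an unadjusted p under 0.05 was 4.7%, and 3.81% to 6.1% with 1 array left out. The cause of these shifts was not tested. The 95% intervals allow a fold down to 0.605 for Ifitm2 and, for Ifitm6, from 0.177 to 22.4.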
